A study of Mus musculus with 2 samples.

Results

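The genes described here encode 6 receptors that stand beside GITR on the surface of T cells: Tnfrsf4 (OX40), Tnfrsf9 (4-1BB), Tnfrsf1b (TNFR2), Cd27, Cd28 and Icos. They were chosen by name, and all 6 were found among the 33696 mouse genes of the count matrix (Tnfrsf4 ENSMUSG00000029075, Tnfrsf9 ENSMUSG00000028965, Tnfrsf1b ENSMUSG00000028599, Cd27 ENSMUSG00000030336, Cd28 ENSMUSG00000026012, Icos ENSMUSG00000026009). Their RNA was followed in single CD45+ immune cells, sorted from tumours that the mouse colon carcinoma line MC38 had formed under the skin. The hosts were of the genotype Human FCR, which carries human Fc gamma receptors. Every mouse received 2000000 MC38 cells and was sampled on day 4 after treatment, after a schedule of 2 intraperitoneal injections 3 days apart. The 4 groups of 1 multiplexed library were GA-aFuc (1 mouse; agonist, Fc enhanced), GITR/Syn GA-aFuc (1 mouse; a non-agonist, also Fc enhanced), N297A (2 mice; agonist, Fc-null) and Untreated (2 mice, also called PBS). The first 3 are anti-mouse GITR antibodies with a human IgG1 Fc, given at 100 µg per mouse; what Syn stands for is not stated. The design names 3 mice per treatment, and this library held 6 mice in all, each marked by a hashtag antibody.

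TNF receptor family members such as OX40, 4-1BB, TNFR2, CD27 and GITR have no enzyme activity of their own. When a trimeric ligand on another cell gathers them, they recruit TRAF adaptor proteins and switch on NF-kB, which favours survival and division of an activated T cell. CD28 and ICOS belong to the immunoglobulin superfamily. Their tails recruit PI3-kinase, and that of CD28 also recruits Grb2-type adaptors. CD28 is carried by resting T cells, and ICOS appears once the cell has been activated. In tumours, regulatory T cells (Tregs) are known to carry high GITR, OX40, 4-1BB and ICOS, which is why antibodies to these receptors are studied both as agonists and as agents that deplete Tregs through Fc receptors.

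In all, 8716 annotated cells were used, 1379 to 1519 per mouse, with 16479710 to 19339165 unique molecular identifiers (UMIs, each 1 captured RNA molecule) per mouse. The deposited cell types held 74 Tregs, 97 CD4 cells, 907 CD8 cells, 723 NK cells, 4104 macrophages, 2486 monocytes, 200 cDC2, 57 mregDC (a name used for mature dendritic cells with immunoregulatory genes), 47 cDC1 and 21 pDC. Tregs numbered 3 in the GA-aFuc mouse and 3 in the GITR/Syn GA-aFuc mouse, 20 and 24 in the N297A mice, and 11 and 13 in the Untreated mice, so Treg tests rest on the N297A and Untreated mice. Levels are CPM, the receptor's UMIs per 1000000 mouse UMIs of a mouse and cell type. In such a sum, fewer cells carrying the RNA and less RNA per cell cannot be told apart. The summed level of 4 T cell markers (Cd3d, Cd3e, Cd3g, Trac) was 2849 CPM in Tregs, 2846 in CD4 cells and 4001 in CD8 cells, against 115.1 in NK cells (38.21 to 246.0 over mice) and 10.99 in mregDC. Foxp3, the defining Treg gene, stood at 264.8 CPM in Tregs, 11.01 in CD4 cells and 4.38 in CD8 cells, and the NK receptor gene Ncr1 at 251.6 CPM in NK cells. A limit of the CD4 name was seen in its cluster 59, where 15 of 39 cells had a Cd8a or Cd8b1 UMI and no Cd4 UMI, while 21 had a Cd4 UMI and no Cd8 UMI. Free RNA, read from 163454 barcodes of 10 to 100 UMIs, held 13.83 CPM of Cd28, 23.47 of Cd27, 37.3 of Tnfrsf4, 38.14 of Icos, 74.6 of Tnfrsf1b and 83.4 of Tnfrsf9. Macrophage markers (5 genes) also summed to 2882 CPM in Tregs (225.1 to 5762 over mice), 1089 CPM in CD4 cells, 476.9 CPM in CD8 cells and 360.4 CPM in NK cells, against 14720 CPM in macrophages; their part in the differences below was not tested.

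Each receptor had its highest mean level in Tregs. In Tregs against CD4 cells, 4 of the 6 genes were called higher and 0 lower by edgeR, where 6.98% of all 2767 genes tested were called. In Tregs against CD8 cells 5 genes were called higher (20.6% of all genes called), and in Tregs against NK cells all 6 (23.5%). In CD4 against CD8 cells 3 were called higher and 1 lower (12.5%), and in CD4 against NK cells 4 were called higher and 1 lower (20.6%). Among those 4, the call of Cd27 depended on CD4-labelled cells with a Cd8a or Cd8b1 UMI. CD8 cells had 5 called higher than NK cells (32.4%). Macrophages against monocytes gave 1 higher and 2 lower (56.6%), and mregDC against cDC2 gave 2 higher of 3 tested (30.6%). The authors named the cell types in a way not given in the sources at hand; such names usually rest on expression, so these differences describe the named types.

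**Figure D1:**
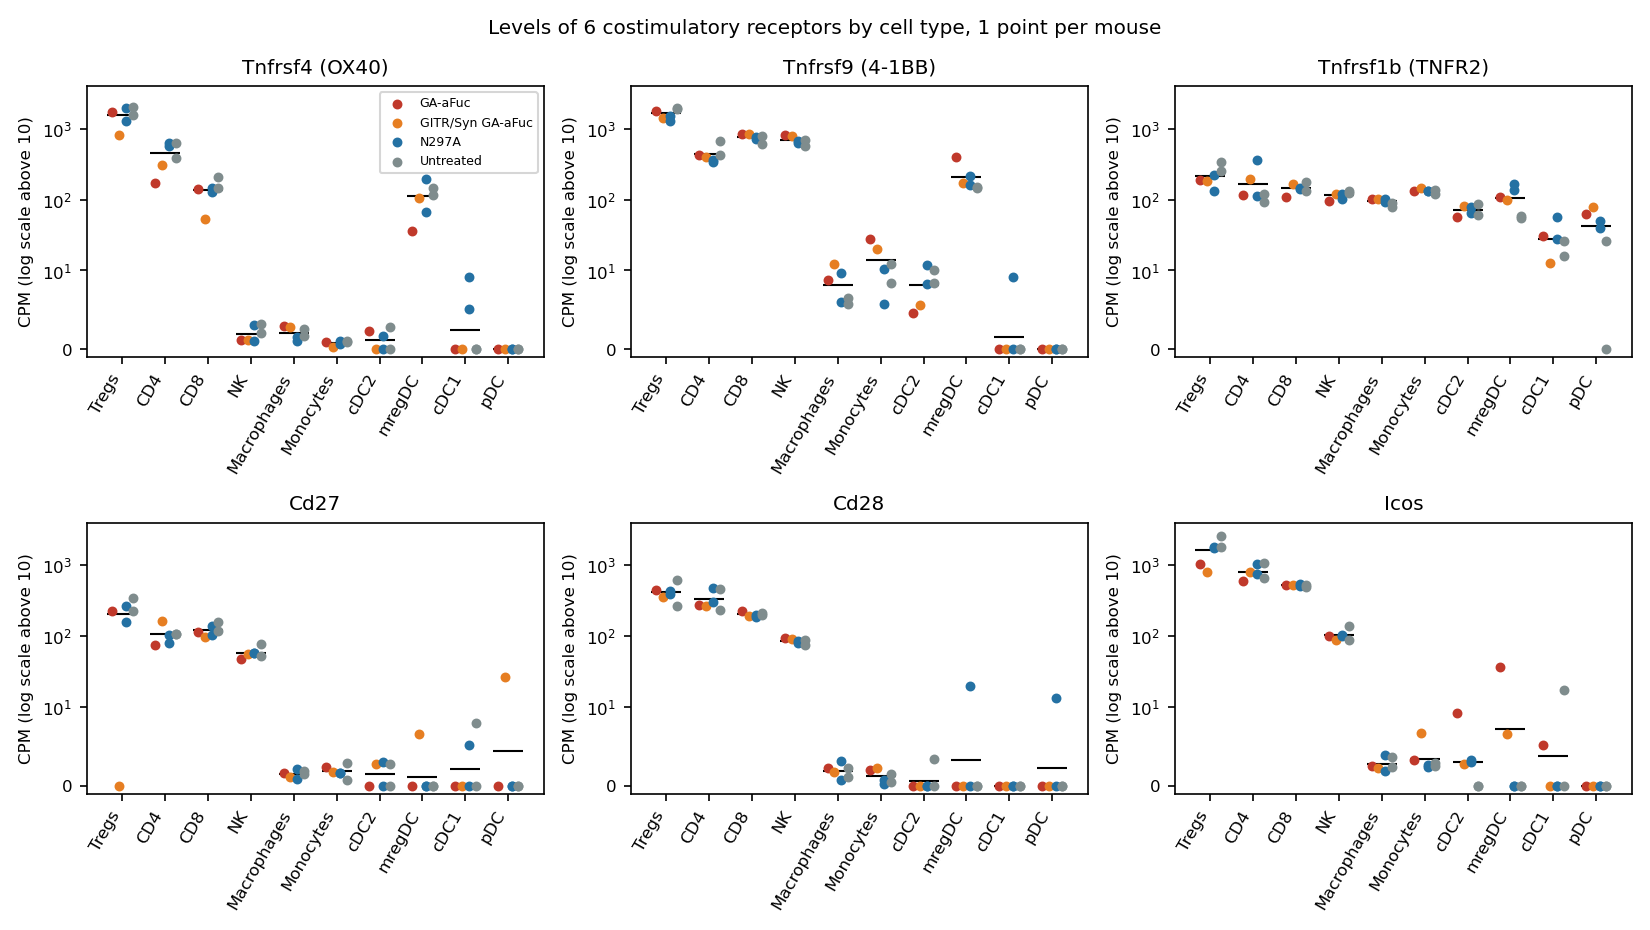
Level of each receptor (CPM, log scale above 10) in 10 deposited cell types, 1 point per mouse coloured by treatment, with the mean as a black line. Tnfrsf4, Cd27, Cd28 and Icos lie near 0 in macrophages and monocytes, while Tnfrsf1b averaged 94.1 CPM in macrophages and 132.0 CPM in monocytes.

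Tnfrsf4 encodes OX40, a receptor that appears on T cells after antigen contact and binds OX40L (Tnfsf4). Its level in Tregs was 1726 CPM in the GA-aFuc mouse, 810.2 in the GITR/Syn GA-aFuc mouse, 1963 and 1298 in the N297A mice and 2046 and 1556 in the Untreated mice. In CD4 cells the same mice had 168.6 CPM (GA-aFuc), 307.6 (GITR/Syn GA-aFuc), 561.0 and 637.8 (N297A) and 388.7 and 619.6 (Untreated). In CD8 cells they had 139.3 CPM (GA-aFuc), 52.38 (GITR/Syn GA-aFuc), 125.9 and 144.7 (N297A) and 146.4 and 206.3 (Untreated). The Treg and CD4 values did not overlap, nor did the Treg and CD8 values, whereas the lowest CD4 mouse lay within the range of the CD8 mice. Tnfrsf4 was higher in Tregs than in CD4 cells (log2 difference 1.61, SE 0.27, edgeR adjusted p = 0.00117, 4 mice) and than in CD8 cells (3.29, SE 0.19, adjusted p = 5.81e-22), and higher in CD4 than in CD8 cells (1.54, SE 0.20, adjusted p = 4.95e-07, 6 mice). NK cells had 1.97 ± 0.99 CPM (SD, n = 6), below the free RNA level of 37.3 CPM, and lay 5.96 log2 units under CD8 cells (adjusted p = 7.07e-20).

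Outside lymphocytes, mregDC were the only type above 3 CPM for Tnfrsf4. They had 36.54 CPM in the GA-aFuc mouse, 104.9 in the GITR/Syn GA-aFuc mouse, 66.35 and 198.0 in the N297A mice and 117.9 and 146.8 in the Untreated mice, each mouse resting on 6 to 13 cells. The 62 UMIs came from 26 of the 57 cells, and 61 of them lay in cells with no T cell marker UMI. cDC2 held 3 Tnfrsf4 UMIs over all mice. The pooled ratio of mregDC over cDC2 was 90.0 (95% interval 29.4 to 448.4, from the exact binomial split of the UMIs). This interval leaves out the spread between mice. With the mouse as a block, the log2 difference of mregDC minus cDC2 was 6.35 (SE 0.71, edgeR adjusted p = 0.000118, 3 mice). The mregDC level did not pass a test against CD8 cells (CD8 minus mregDC -0.17, SE 0.32, adjusted p = 0.725, 3 mice; 36.9% of all genes were called between these types).

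The promoter of Tnfrsf4 is shown because its RNA had the widest range among T cell types, and those of Tnfrsf9 because its RNA was high in both CD8 and NK cells. RefSeq gives 1 entry for Tnfrsf4 at chr4:156013445-156013744 and 2 for Tnfrsf9, at chr4:150919905-150920204 and chr4:150927749-150928048 (GRCm38.p6, plus strand, 250 bases before to 50 after the annotated start). Capitals mark matches to 3 motifs searched on both strands, and no pair of matches overlaps.
Tnfrsf4: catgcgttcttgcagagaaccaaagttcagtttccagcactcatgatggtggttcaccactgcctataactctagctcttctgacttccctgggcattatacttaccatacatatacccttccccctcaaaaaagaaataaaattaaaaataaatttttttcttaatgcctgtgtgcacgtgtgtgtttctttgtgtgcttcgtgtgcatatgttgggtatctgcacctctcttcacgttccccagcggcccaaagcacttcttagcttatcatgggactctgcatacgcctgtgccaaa
Tnfrsf9 upstream start: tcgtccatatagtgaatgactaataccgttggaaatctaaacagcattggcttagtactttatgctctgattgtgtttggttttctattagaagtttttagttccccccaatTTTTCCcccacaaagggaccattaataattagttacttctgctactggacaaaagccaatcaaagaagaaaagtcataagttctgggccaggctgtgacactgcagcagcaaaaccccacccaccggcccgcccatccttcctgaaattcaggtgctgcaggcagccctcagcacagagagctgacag
Tnfrsf9 downstream start: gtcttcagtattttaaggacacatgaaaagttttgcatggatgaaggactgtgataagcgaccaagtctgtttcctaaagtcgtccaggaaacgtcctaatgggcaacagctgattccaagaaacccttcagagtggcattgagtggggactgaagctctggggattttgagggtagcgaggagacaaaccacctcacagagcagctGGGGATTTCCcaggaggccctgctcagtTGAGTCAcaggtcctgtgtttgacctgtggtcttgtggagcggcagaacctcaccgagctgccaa
The motifs, chosen after the promoters had been read, were kappaB (GGG, 2 bases of any kind, then TTTCC, in 1.63% of 32851 RefSeq promoters of 300 bases), AP-1 (TGANTCA, 7.81%) and the NFAT core (GGAAAA, 23.4%). The downstream Tnfrsf9 start holds GGGGATTTCC with its first base at -43 and TGAGTCA at -15, and the upstream start holds the NFAT core read on the other strand at -138. Neither the Tnfrsf4 window nor that of Tnfrsf1b holds any of the 3, and that of Cd27 holds GGAAAA at -52. Of the 6 receptors, 4 matched a RefSeq promoter entry. The counts are read at the 3' end of each RNA, so they do not show which start was used, and a match is a description of the letters.

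Tnfrsf9 encodes 4-1BB, a receptor of activated T and NK cells whose ligand is 4-1BBL (Tnfsf9). Tregs had 1801 CPM in the GA-aFuc mouse, 1395 in the GITR/Syn GA-aFuc mouse, 1532 and 1268 in the N297A mice and 1885 and 1954 in the Untreated mice. CD8 cells had 845.9 CPM (GA-aFuc), 848.5 (GITR/Syn GA-aFuc), 717.0 and 760.3 (N297A) and 616.0 and 780.0 (Untreated), and NK cells 823.4 CPM (GA-aFuc), 784.8 (GITR/Syn GA-aFuc), 667.6 and 631.6 (N297A) and 564.6 and 689.7 (Untreated). All Treg values lay above all CD8 and NK values, and the CD8 and NK ranges overlapped over most of their width. The Treg level was higher than that of CD4 cells (1.87, SE 0.25, adjusted p = 0.000181), of CD8 cells (1.00, SE 0.16, adjusted p = 2.01e-06) and of NK cells (1.13, SE 0.17, adjusted p = 4.57e-08). Tnfrsf9 was called lower in CD4 than in CD8 cells (-0.94, SE 0.16, adjusted p = 9.50e-06) and in CD4 than in NK cells (-0.85, SE 0.15, adjusted p = 2.16e-05).
The CD8 and NK levels were not separated (CD8 minus NK 0.09, SE 0.06, adjusted p = 0.279). Of the 5008 Tnfrsf9 UMIs in NK cells, 3462 lay in cells without a T cell marker UMI. mregDC averaged 207.5 ± 98.5 CPM (SD, n = 6), against 14.2 ± 8.33 CPM in monocytes (log2 difference 3.48, SE 0.37, adjusted p = 6.18e-19, 3 mice, with 24.3% of all genes called) and 8.19 ± 2.78 CPM in cDC2 (4.20, SE 0.43, adjusted p = 6.93e-05, 3 mice). In mregDC the RNA was found in 34 of 57 cells, and 96 of the 103 UMIs lay in cells without a T cell marker UMI.

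**Figure D2:**
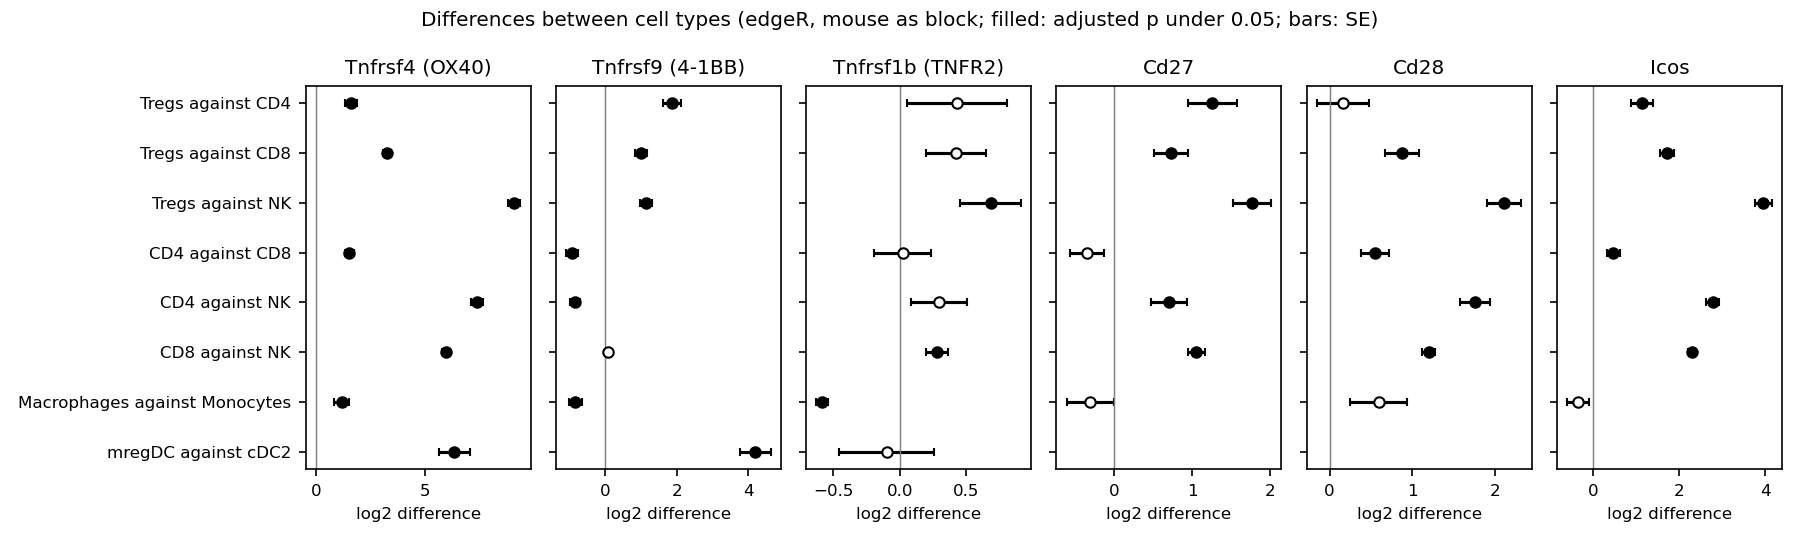
Log2 difference of each receptor in 8 pairs of cell types (the first-named type minus the second), with the standard error as a bar and filled points for an edgeR adjusted p under 0.05. Tnfrsf1b lies nearest to 0 in 4 of the 6 lymphocyte pairs, and Tnfrsf9 lies below 0 in CD4 against CD8 cells, at -0.94.

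Tnfrsf1b encodes TNFR2, which binds TNF and lymphotoxin and is found on Tregs and on myeloid cells. It averaged 218.0 ± 71.0 CPM in Tregs, 167.6 ± 102.8 in CD4 cells, 144.8 ± 24.1 in CD8 cells, 132.0 ± 8.10 in monocytes, 115.5 ± 14.1 in NK cells, 104.4 ± 43.6 in mregDC and 94.1 ± 8.87 in macrophages (SD, n = 6 each). It was thus the receptor of the 6 with the flattest profile over types. Free RNA held 74.6 CPM of Tnfrsf1b (95% Poisson interval 64.0 to 86.4), against 71.5 ± 11.7 CPM in cDC2 and 28.2 ± 15.4 CPM in cDC1 (SD, n = 6 each). The macrophage mean lay above this interval and the cDC2 mean within it. A free RNA level is not the amount that free RNA adds to a cell. For Tnfrsf4, free RNA held 37.3 CPM, while macrophages averaged 2.09 CPM and cDC2 1.12 CPM. The part of free RNA in the myeloid Tnfrsf1b levels was not tested. Neighbours in this order did not separate from Tregs down to monocytes (Tregs minus CD4 0.43, adjusted p = 0.530; CD4 minus CD8 0.02, adjusted p = 0.967; CD8 minus monocytes -0.04, adjusted p = 0.649, after TMM scaling, with 72.4% of all genes called).
Tregs exceeded NK cells (0.68, SE 0.23, adjusted p = 0.0190), and so did CD8 cells (0.28, SE 0.08, adjusted p = 0.0101). Both calls were lost under DESeq2 (adjusted p = 0.0870 and 0.101). The Treg call was also lost without the first N297A mouse (adjusted p = 0.0704) or the second Untreated mouse (0.153), and the CD8 call without the first Untreated mouse (0.0534). In macrophages the 6 mice had 102.3 CPM (GA-aFuc), 100.4 (GITR/Syn GA-aFuc), 100.4 and 92.29 (N297A) and 90.02 and 79.05 (Untreated), and in monocytes 131.4 CPM (GA-aFuc), 143.8 (GITR/Syn GA-aFuc), 131.4 and 131.5 (N297A) and 135.2 and 118.7 (Untreated). Every monocyte value lay above every macrophage value, and Tnfrsf1b was lower in macrophages (log2 difference -0.58, SE 0.05, adjusted p = 2.32e-10).

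Cd27 encodes a receptor that naive and memory T cells already carry and that binds CD70. It averaged 203.4 ± 115.8 CPM in Tregs, 121.3 ± 21.8 in CD8 cells, 105.8 ± 31.7 in CD4 cells and 57.6 ± 9.99 in NK cells (SD, n = 6), and 1.09 to 4.42 CPM in the other types in which it was found. The Treg mean includes the GITR/Syn GA-aFuc mouse, whose 3 Tregs gave 0 Cd27 UMIs, which allows up to 166.0 CPM. Cd27 was higher in Tregs than in CD8 cells (0.73, SE 0.22, adjusted p = 0.0100) and than in CD4 cells (1.26, SE 0.32, adjusted p = 0.0207), though DESeq2 did not call the difference from CD4 cells (adjusted p = 0.189). Without the second N297A mouse neither passed (adjusted p = 0.0856 against CD8 and 0.107 against CD4), and without either Untreated mouse the difference from CD4 cells did not (0.0680 and 0.0510). CD8 cells exceeded NK cells (log2 difference 1.06, SE 0.11, adjusted p = 1.05e-08). CD4 cells exceeded NK cells by 0.70 (SE 0.24, adjusted p = 0.0259), a call lost without the GITR/Syn GA-aFuc mouse (adjusted p = 0.140) or the first Untreated mouse (0.0637). CD4 and CD8 cells were not separated (-0.35, SE 0.22, adjusted p = 0.342).
Both of these results for Cd27 depended on cells with a Cd8a or Cd8b1 UMI and no Cd4 UMI: the 15 such cells of cluster 59 held 42 of the 73 Cd27 UMIs of CD4-labelled cells. With all such cells left out, an alternative chosen after seeing the data, 74 cells remained and the pooled CD4 level was 57.2 CPM, against 100.5 CPM with them and 56.4 CPM in NK cells. The difference of CD4 from NK cells was then -0.06 (SE 0.34, adjusted p = 0.941, 5 mice), and Cd27 was called lower in CD4 than in CD8 cells (-1.12, SE 0.30, adjusted p = 0.00275). The calls of the other receptors between CD4 cells and Tregs, CD8 or NK cells held in the same direction. Of the 409 Cd27 UMIs in NK cells, 290 lay in cells without a T cell marker UMI.

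Cd28 encodes the receptor for CD80 and CD86 that gives naive T cells their second signal. It averaged 416.5 ± 114.6 CPM in Tregs, 337.8 ± 107.3 in CD4 cells, 202.0 ± 15.4 in CD8 cells and 85.0 ± 6.35 in NK cells (SD, n = 6), against 3.30 CPM or less in every other type. The CD8 mice ranged over 187.4 to 228.4 CPM and the NK mice over 75.41 to 92.93 CPM, with no overlap. Tregs and CD4 cells were not separated (0.16, SE 0.32, adjusted p = 0.814). CD4 cells exceeded CD8 cells (0.55, SE 0.17, adjusted p = 0.0234), a call lost without the second Untreated mouse (adjusted p = 0.0784) or the second N297A mouse (adjusted p = 0.137). Tregs exceeded CD8 cells (0.87, SE 0.20, adjusted p = 0.000739), and CD8 cells exceeded NK cells (1.19, SE 0.08, adjusted p = 1.35e-12).

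Icos encodes the inducible relative of CD28, whose ligand is ICOSL. Tregs had 1050.0 CPM in the GA-aFuc mouse, 810.2 in the GITR/Syn GA-aFuc mouse, 1744 and 1784 in the N297A mice and 2585 and 1797 in the Untreated mice. CD8 cells had 523.4 CPM (GA-aFuc), 523.8 (GITR/Syn GA-aFuc), 549.3 and 513.1 (N297A) and 497.7 and 526.2 (Untreated), and NK cells 99.7 CPM (GA-aFuc), 88.28 (GITR/Syn GA-aFuc), 104.1 and 101.7 (N297A) and 88.87 and 140.8 (Untreated). The CD8 values kept within a narrow band, with an SD of 17.0 CPM around 522.2. Icos was ordered Tregs, CD4, CD8 and NK, and each step was called: Tregs over CD4 by 1.15 (SE 0.26, adjusted p = 0.00976), CD4 over CD8 by 0.48 (SE 0.15, adjusted p = 0.0228) and CD8 over NK by 2.29 (SE 0.08, adjusted p = 9.79e-19). The call between Tregs and CD4 was lost without the second N297A mouse (adjusted p = 0.107), and that between CD4 and CD8 was lost when any of 3 mice was left out (GITR/Syn GA-aFuc, adjusted p = 0.0574; the first N297A mouse, 0.0688; the second Untreated mouse, 0.0750). GITR itself (Tnfrsf18) averaged 870.7 CPM in Tregs, 345.4 in CD4 cells, 251.0 in CD8 cells and 144.6 in NK cells, but its CD4 and CD8 levels were not separated (0.30, adjusted p = 0.297).

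Next, the receptors were read in the authors' clusters, with all mice pooled and 95% Poisson intervals drawn for the UMI sums. The 2 CD4 clusters differed in opposite ways by gene. Cluster 59 (39 cells) had 676.5 CPM Tnfrsf4, 647.0 CPM Tnfrsf9 and 150.7 CPM Cd27, against 141.7, 237.0 and 56.7 CPM in cluster 35 (58 cells). Icos ran the other way, with 493.4 CPM in cluster 59 against 999.7 CPM in cluster 35. Cd28 had 265.9 against 353.0 CPM, with overlapping intervals (213.8 to 326.8 CPM in cluster 59 and 296.4 to 417.3 CPM in cluster 35). Within cluster 59 the cells with a Cd4 UMI and no Cd8 UMI had 864.7 CPM Tnfrsf4 and 30.45 CPM Cd27, whereas the cells with a Cd8 UMI and no Cd4 UMI had 376.6 and 282.5 CPM. Cluster 59 made up 33.3% to 47.4% of the CD4 cells of a mouse.

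Among CD8 clusters, Tnfrsf4 was highest in cluster 38, at 223.0 CPM, whose cells had 627.1 CPM of the proliferation gene Mki67. It stood at 165.8 CPM in cluster 33, 95.01 in cluster 16, 33.2 in cluster 44 and 9.09 in cluster 23. Cluster 38 also had the most Foxp3 and Cd4 RNA of the CD8 clusters (12.96 and 14.3 CPM, against 264.8 and 165.0 CPM in Tregs). The part of any Tregs or CD4 cells in its Tnfrsf4 level was not tested. Tnfrsf9 had 966.5 CPM in cluster 33, 863.9 in cluster 16 and 190.9 in cluster 23. Cluster 23, with 101.1 CPM Tcf7 (a transcription factor gene of naive-like and memory-like T cells) against 1.2 to 1.4 CPM Tcf7 in clusters 16 and 33, had the highest CD8 level of Cd28, 303.4 CPM. Tnfrsf1b ranged over 88.1 CPM (cluster 38) to 195.2 CPM (cluster 16), and Icos over 425.7 CPM (cluster 33) to 724.6 CPM (cluster 16). Cd27 was also highest in cluster 16, at 180.3 CPM.

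In NK clusters Tnfrsf9 was at least 368.5 CPM (cluster 26) and reached 866.2 CPM in cluster 48 and 791.0 CPM in cluster 20. Tnfrsf4 did not exceed 6.08 CPM in any of the 5, and cluster 48 held 0 Tnfrsf4 UMIs, which allows up to 2.93 CPM. Cd27 stood at 83.9 CPM in cluster 19 and at 26.2 CPM in cluster 48. The T cell marker Cd3e had 31.8 CPM in cluster 48 and 21.9 CPM in cluster 58, against at most 2.9 CPM in the other NK clusters.

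**Figure D3:**
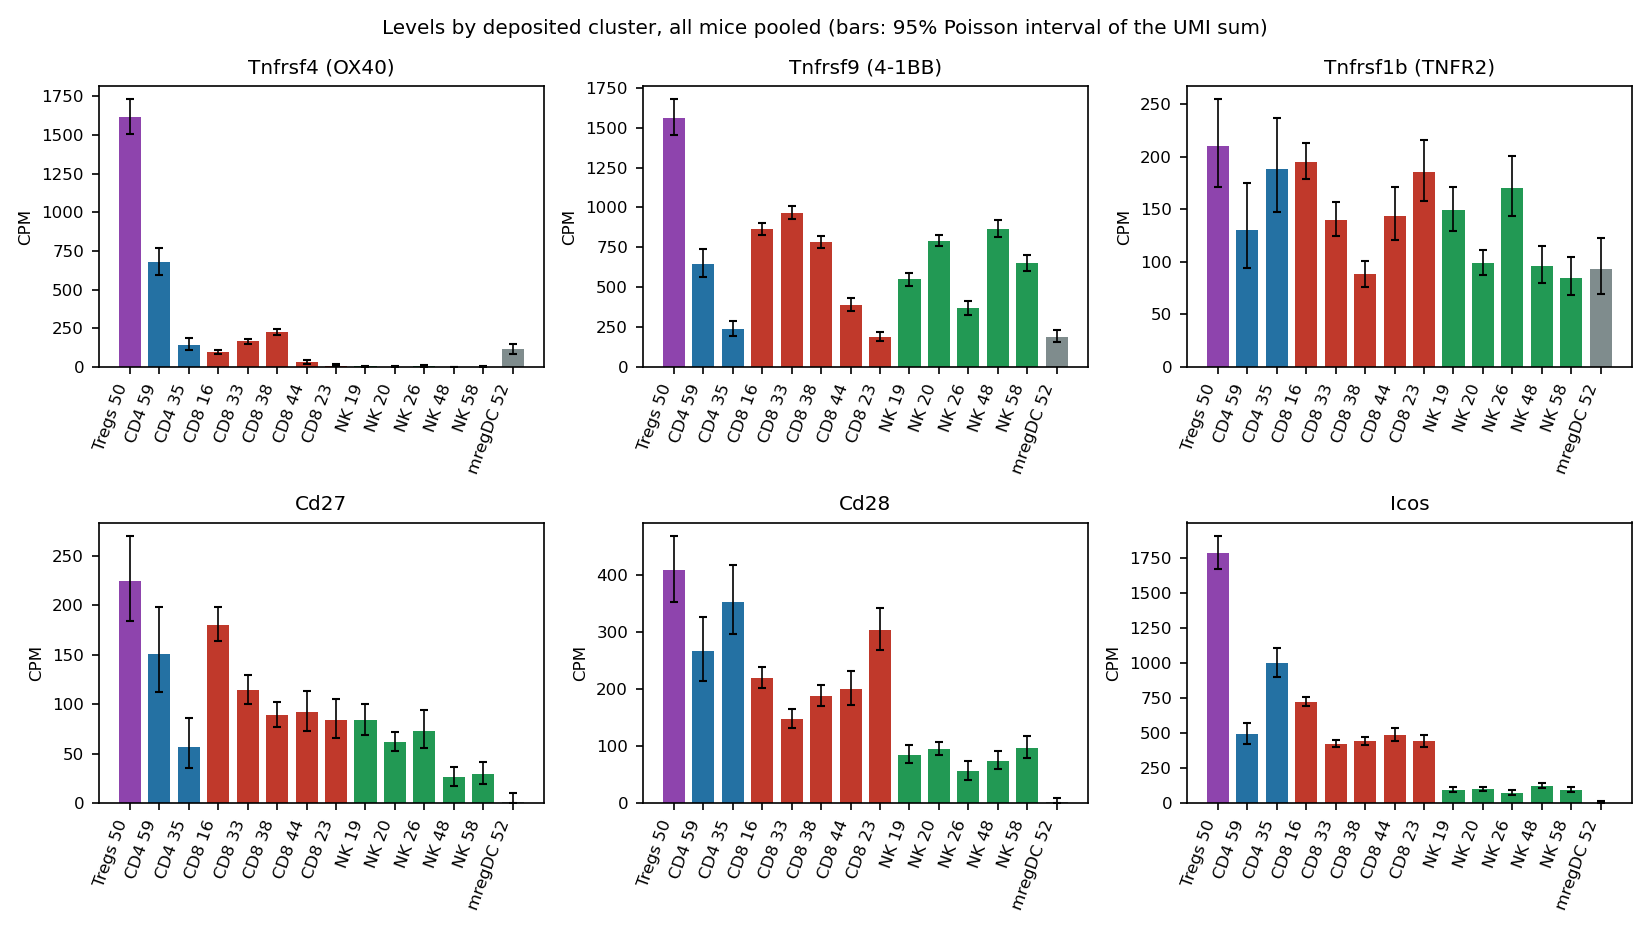
Level of each receptor (CPM, linear axis from 0) in 14 deposited clusters of Tregs, CD4, CD8, NK and mregDC, all mice pooled, with 95% Poisson intervals that cover counting error only. The 5 NK clusters are near 0 for Tnfrsf4 and lie between 368.5 and 866.2 CPM for Tnfrsf9.

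Over the 56 clusters with at least 20 cells, the profile of each receptor was compared with 9965 genes by Pearson's r of log2(CPM + 1). These clusters share mice, library and sequencing run and differ in depth, so r is a description. Cd28 and Icos were each other's nearest gene (r = 0.963), followed for Cd28 by the T cell kinase gene Zap70 (0.957) and for Icos by the T cell receptor gene Trbc2 (0.960). Cd27 was nearest to Gimap4 (0.952) and Tnfrsf9 to the cytotoxic granule gene Nkg7 (0.926). Tnfrsf4 was nearest to the phosphatase gene Dusp4 (0.887), then Cd5 and the Treg transcription factor gene Ikzf4 (0.833 each). Tnfrsf1b stood apart from the others: its nearest gene was Aplp2 (0.846), its r with the other 5 receptors was 0.300 to 0.413, and its r with GITR was 0.252, whereas the other 5 had 0.734 (Tnfrsf4) to 0.895 (Icos) with GITR.

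To compare cells of unequal depth, each cell was thinned to 2000 UMIs. After thinning, Tnfrsf4 was found in 90.4% of Tregs (66 of 73, exact binomial 95% interval 81.2% to 96.1%), 43.2% of CD4 cells, 12.8% of CD8 cells (10.7% to 15.1%) and 19.6% of mregDC (10.2% to 32.4%). The share was 0.692% in NK cells and 0.367% in macrophages, a type taken as background. Before thinning the shares were 100.0% of Tregs, 31.3% of CD8 cells and 2.08% of NK cells, with median depths of 5298, 8158 and 7880 UMIs, against 15222 UMIs in macrophages. Tnfrsf9 was found in 90.4% of Tregs, 51.6% of CD4 cells, 63.2% of CD8 cells and 59.5% of NK cells, against 1.61% of macrophages.

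Icos was found in 84.9% of Tregs, 70.5% of CD4 cells, 56.7% of CD8 cells and 15.3% of NK cells, and in 0.343% of macrophages. Cd28 was found in 56.2%, 48.4%, 30.0% and 13.6% of the same 4 types (macrophages 0.269%), and Cd27 with 37.0%, 14.7%, 22.1% and 10.2% (macrophages 0.318%). For Tnfrsf1b the shares were 37.0%, 32.6%, 27.9% and 21.2%, and macrophages (17.0%) and monocytes (22.9%) came close to NK cells. Tnfrsf1b stood at 74.6 CPM in free RNA, and the part of background in these shares was not tested. The lowest share after thinning was 2 of 47 cells in cDC1, whose median depth was 18338 UMIs.

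Single cells often carried several of the receptors. At 2000 UMIs per cell, at least 3 of the 6 were found together in 89.0% of Tregs (65 of 73), 54.7% of CD4 cells (52 of 95), 35.7% of CD8 cells (324 of 907) and 7.05% of NK cells (51 of 723), against 3 of 4086 macrophages. All 6 were found in 7 Tregs, 1 CD4 cell and 2 CD8 cells. In T cells, those with a GITR UMI carried Tnfrsf4 more often than those without one: 58 of 58 against 8 of 15 in Tregs, 57.9% against 33.3% in CD4 cells, and 20.6% (66 of 320) against 8.52% (50 of 587) in CD8 cells. In NK cells (0 of 166 against 5 of 557) and macrophages (0 of 19 against 15 of 4067) Tnfrsf4 was found too rarely for a comparison. In CD8 cells each other receptor was also found more often with a GITR UMI than without. The shares were 61.25% against 54.17% for Icos, 67.81% against 60.65% for Tnfrsf9 and 29.69% against 26.92% for Tnfrsf1b. They were 30.9% against 29.5% for Cd28 and 23.1% against 21.5% for Cd27. The same receptors were also found more often with a GITR UMI in NK cells, by 62.65% against 58.53% for Tnfrsf9 and 16.27% against 15.08% for Icos. Among macrophages, Tnfrsf1b was found in 9 of 19 cells with a GITR UMI and 684 of 4067 without, so this direction was not particular to T cells. In Tregs Icos had 89.7% against 66.7%. In CD4 cells Cd27 had 23.7% against 8.77%, whereas Tnfrsf1b had 26.3% against 36.8%. These are shares of cells, which are not replicates, and no test was made of them.

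**Figure D4:**
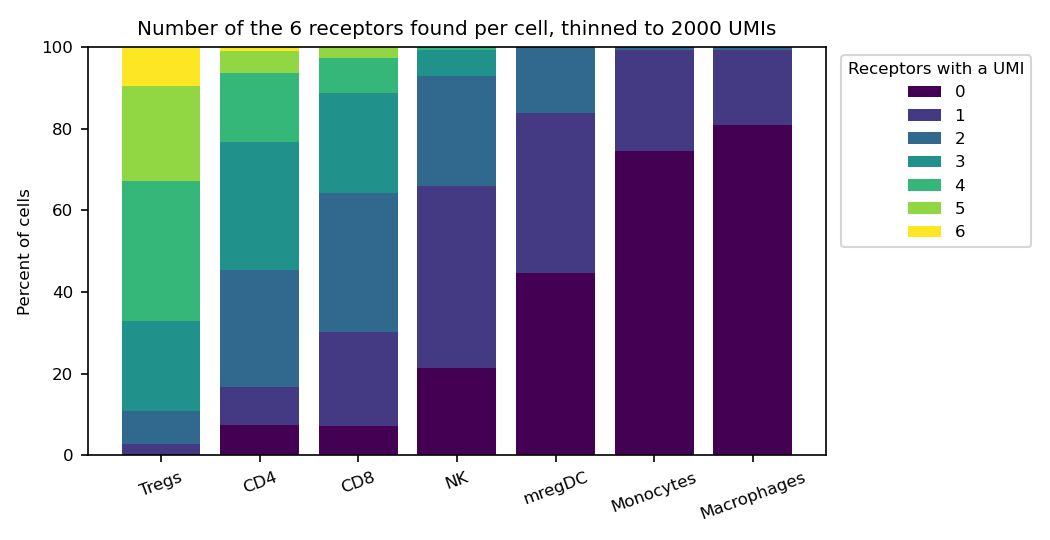
Share of cells (percent) in which 0 to 6 of the receptors had a UMI, each cell thinned to 2000 UMIs, by cell type. In Tregs 100.0% of cells had at least 1 receptor, against 78.6% of NK cells and 19.2% of macrophages.

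The ligands were measured in the same sums. Cd86, which encodes a partner of CD28, averaged 1121 ± 295.9 CPM in mregDC and 1312 ± 160.0 in cDC2 (SD, n = 6 mice), and Cd80 396 ± 190.3 CPM in mregDC and 266 ± 62.1 in cDC2. Tnfsf9, the ligand gene for 4-1BB, stood at 61.4 ± 53.8 CPM in mregDC and 15.8 ± 2.30 in macrophages. Tnfsf4, the ligand gene for OX40, stood at 36.5 ± 44.02 CPM in mregDC and 25.4 ± 17.3 in NK cells, and Icosl at 36.8 ± 24.6 CPM in mregDC and 16.1 ± 1.92 in macrophages. Each mouse gave 6 to 13 mregDC. Of 4 ligand genes tested in mregDC against cDC2, Cd70 was called higher and 0 were called lower, where 15.7% of all genes were called higher. In CD8 against NK cells Cd86, Cd80 and Tnf were called higher and Tnfsf4 lower (log2 difference -1.89), of 6 tested, where 15.8% of all genes were called higher and 16.6% lower.

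Genes that act below the receptors were counted by list. Of 18 TRAF and NF-kB genes, 12 of the 16 tested were called higher in mregDC than in cDC2 and 0 lower, where 15.7% of all genes were called higher (median log2 difference 1.51, against -0.03 over all genes), with Relb at 3.49 and Traf1 at 3.14. In Tregs against CD8 cells 6 of 17 were higher (9.67% of all genes), among them Traf1 (0.89) and Relb (0.90), and Map3k14, the kinase of the non-canonical pathway, was lower (-2.07; 10.9% of all genes). In CD4 against CD8 cells 7 of 18 were higher, where 5.69% of all genes were (median 0.45, against -0.04 over all genes), and in Tregs against CD4 cells 0 of 10, where Nfkb1 (-0.66) and Tnfaip3 (-0.86) had an unadjusted p under 0.05. In macrophages 14 of 18 were lower than in monocytes (median -0.43), where 27.7% of all genes were called lower. Of 16 genes near CD28 and ICOS, Tregs had Gab2, Lcp2 and Grb2 higher than CD8 cells (9.67% of all genes), and Prkcq and Lck were among those lower (10.9%).
Among the inhibitory relatives of CD28, Ctla4, which competes for CD80 and CD86, was higher in Tregs than in CD4 cells (log2 difference 1.56) and CD8 cells (1.61). Pdcd1, which encodes PD-1, was lower in Tregs (-2.41 and -2.89).

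Finally, the treatments were compared, with the 3 antibody groups set against the same Untreated mice. The comparisons against Untreated therefore share their controls. Over 7 cell types, 118 tests of the 6 genes gave 1 call. N297A against Untreated gave 0 calls in 34 tests and GA-aFuc against Untreated 0 in 28. GITR/Syn GA-aFuc against Untreated gave 1 in 28 and GA-aFuc against N297A 0 in 28. DESeq2 and limma-voom also gave 0, 0, 1 and 0 calls. For N297A against Untreated, with 2 mice in each group, 2 of the 34 edgeR tests had an unadjusted p under 0.05. Those were in CD4 and CD8 cells, where 122 of 3165 and 393 of 9763 genes met this threshold. Few genes of any kind passed with 1 or 2 mice per group. Over all genes, N297A against Untreated called 0% in Tregs, 0.411% in CD4 cells, 0.0205% in CD8 cells, 0.0108% in NK cells, 0% in macrophages, 0.00876% in monocytes and 0.0169% in cDC2. GA-aFuc against Untreated called 0.126% in CD4 cells, 0.0922% in CD8 cells, 0.0651% in NK cells, 0.0148% in macrophages, 0.193% in monocytes and 0.0676% in cDC2. GITR/Syn GA-aFuc against Untreated called 0.221%, 0.154%, 0.0434%, 0.0148%, 0.21% and 0.135% in the same 6 types. GA-aFuc against N297A called 0.695%, 0.041%, 0.119%, 0.00739%, 0.0175% and 0.0507% in them. A group of 1 mouse was assumed to vary like the others. The 5 lists of ligands, other receptors and signalling genes (52 genes) gave 0 edgeR calls in 1036 tests.

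The called gene was Tnfrsf4 in CD8 cells. It stood at 52.38 CPM in the GITR/Syn GA-aFuc mouse, against 146.4 and 206.3 CPM in the Untreated mice (log2 change -1.70, SE 0.23, edgeR adjusted p = 0.000674). In this comparison 15 of 9763 genes were called (0.154%). The other antibody mice had 139.3 CPM (GA-aFuc) and 125.9 and 144.7 CPM (N297A), so the GITR/Syn GA-aFuc mouse was the lowest of the 6. A Tnfrsf4 UMI was found in 25 of 162 CD8 cells of the GITR/Syn GA-aFuc mouse, against 67 of 199 and 43 of 82 in the Untreated mice, at median depths of 7529 UMIs against 7925 and 8122.5.
Besides cluster 23, the other 4 of the 5 CD8 clusters had a lower value in the GITR/Syn GA-aFuc mouse than in both Untreated mice. Clusters of the same mouse are not replicates, and no test was made of them. In cluster 23 the GITR/Syn GA-aFuc mouse held 0 Tnfrsf4 UMIs, which allows up to 34.13 CPM, against 25.26 and 7.608 CPM in Untreated, so no difference was detectable there. In cluster 38 the GITR/Syn GA-aFuc mouse had 52.71 CPM, against 317.6 and 311.2 CPM in Untreated. In cluster 33 it had 88.95 CPM, against 154.6 and 293.6 CPM in Untreated, and in cluster 16 it had 47.3 CPM, against 74.59 and 165.1 CPM in Untreated. In cluster 44 it had 13.56 CPM (25 cells), against 48.13 CPM (34 cells) and 55.45 CPM (9 cells) in Untreated. All mice together held 30 Tnfrsf4 UMIs in cluster 44, so these values rest on few counts. Cluster 38, where Tnfrsf4 was highest, made up 10.5% of CD8 cells in that mouse, against 14.6% and 15.8% in Untreated. It also had the most Foxp3 RNA of the CD8 clusters (12.96 CPM), and the part of any Tregs in these Tnfrsf4 values was not tested. The summed T cell markers were 4191 CPM in the GITR/Syn GA-aFuc mouse, against 4017 and 3749 CPM in Untreated. The call was lost without the second Untreated mouse (log2 change -1.46, adjusted p = 0.134), without each gene's top cell (-1.69, adjusted p = 0.146) and without the top 5% of cells by UMIs (-2.08, adjusted p = 0.417).

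The other Tnfrsf4 values did not pass. In CD4 cells the GA-aFuc mouse had 168.6 CPM, the lowest of 6, against 388.7 and 619.6 CPM in Untreated (log2 change -1.47, SE 0.55, adjusted p = 0.792) and 561.0 and 637.8 CPM in N297A (-1.71, SE 0.55, adjusted p = 0.199). In CD4 cluster 59 the GA-aFuc mouse had 286.9 CPM and the GITR/Syn GA-aFuc mouse 420.2, against 1061 and 1074 in N297A and 627.3 and 916.6 in Untreated. In CD8 cells N297A against Untreated gave -0.34 (SE 0.16, unadjusted p alone under 0.05).

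Tnfrsf9 in the GA-aFuc mouse was the highest or second highest of 6 in CD8 cells, NK cells and monocytes, without a call. The other types did not all run this way. Against Untreated, the log2 changes for GA-aFuc and GITR/Syn GA-aFuc were -0.26 and -0.44 in CD4 cells and 0.49 and 0.98 in macrophages. In Tregs the GA-aFuc mouse lay below both Untreated mice. In monocytes the GA-aFuc mouse had 28.1 CPM and the GITR/Syn GA-aFuc mouse 19.97, against 10.54 and 5.775 in N297A and 12.51 and 8.426 in Untreated. All 6 values are under the free RNA level of 83.4 CPM, which is not the amount that free RNA adds to a cell. The part of free RNA in them was not tested. The change of GA-aFuc was 1.43 against Untreated (SE 0.32, adjusted p = 0.226) and 1.72 against N297A (SE 0.34, adjusted p = 0.233). Without a filter on low counts both were called (1.41, adjusted p = 6.52e-05, and 1.70, adjusted p = 1.78e-06). Among monocyte clusters Tnfrsf9 was highest in cluster 0, at 47.61 CPM over all mice against 2.98 to 16.5 CPM in the others. Cluster 0 had 102.3 CPM in the GA-aFuc mouse and 83.64 in the GITR/Syn GA-aFuc mouse, against 29.11 and 18.79 in N297A and 43.84 and 12.21 in Untreated. Cluster 0 made up 15.7% and 12.9% of the monocytes of the Fc-enhanced mice, against 9.40% and 10.5% in N297A and 10.8% and 10.7% in Untreated; its part in the monocyte value was not tested.

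In NK cells Tnfrsf9 stood at 823.4 CPM in the GA-aFuc mouse and 784.8 in the GITR/Syn GA-aFuc mouse, against 667.6 and 631.6 in N297A and 564.6 and 689.7 in Untreated. The change was 0.45 for GA-aFuc (SE 0.14, adjusted p = 0.622) and 0.37 for GITR/Syn GA-aFuc (SE 0.14, adjusted p = 0.825) against Untreated. The NK cells of these mice were also deeper, with a median of 11262 and 10212 UMIs, against 6902 and 6662.5 in N297A and 7320.5 and 6426 in Untreated, and the part of this depth in the result was not tested. NK cluster 26, lowest in Tnfrsf9, made up 17.56% (GA-aFuc) and 16.22% (GITR/Syn GA-aFuc) of NK cells, against 25.45% to 26.12% in the other mice. NK cluster 48, the highest, made up 22.14% and 14.86%, against 7.407% to 14.46%. In CD8 cells the change was 0.31 (SE 0.15) for each Fc-enhanced antibody. CD8 cluster 23, lowest in Tnfrsf9, made up 13.43% and 12.35% of their CD8 cells, against 14.07% to 21.72% in the other mice. The part of these cluster shares in the Tnfrsf9 values was not tested.

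Cd28 and Icos in CD8 cells had no call, with log2 changes of -0.09 to 0.24 for Cd28 and -0.03 to 0.09 for Icos over the 4 comparisons. Cd27 in CD8 cells was 98.47 CPM in the GITR/Syn GA-aFuc mouse, against 156.9 and 117.1 CPM in Untreated (-0.48, SE 0.21, adjusted p = 0.813). Tnfrsf1b in CD4 cells was 365.1 and 113.9 CPM in the N297A mice, against 93.83 and 120.9 CPM in Untreated (1.15, SE 0.52, adjusted p = 0.992), so the first N297A mouse alone stood out.

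In Tregs only N297A and Untreated could be tested, and the 6 changes ran over -0.73 for Tnfrsf1b (SE 0.42) to -0.01 for Cd28, with 0 calls among the 6 and 0 among 2285 genes (96 at an unadjusted p under 0.05). Icos in Tregs was 1050.0 CPM in the GA-aFuc mouse (95% Poisson interval 697.9 to 1518) and 810.2 CPM in the GITR/Syn GA-aFuc mouse (480.1 to 1280), below the 2585 and 1797 CPM of the Untreated mice. The lower 2 values rest on 3 cells each. Poisson and binomial intervals here cover counting error only.
The change under N297A was also set between CD8 and NK cells in 1 model, and no receptor passed (adjusted p = 1 for each). Differences ran over -0.04 for Cd28 to 0.21 for Icos, and 1 of 9118 genes was called (332 at an unadjusted p under 0.05).

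**Figure D5:**
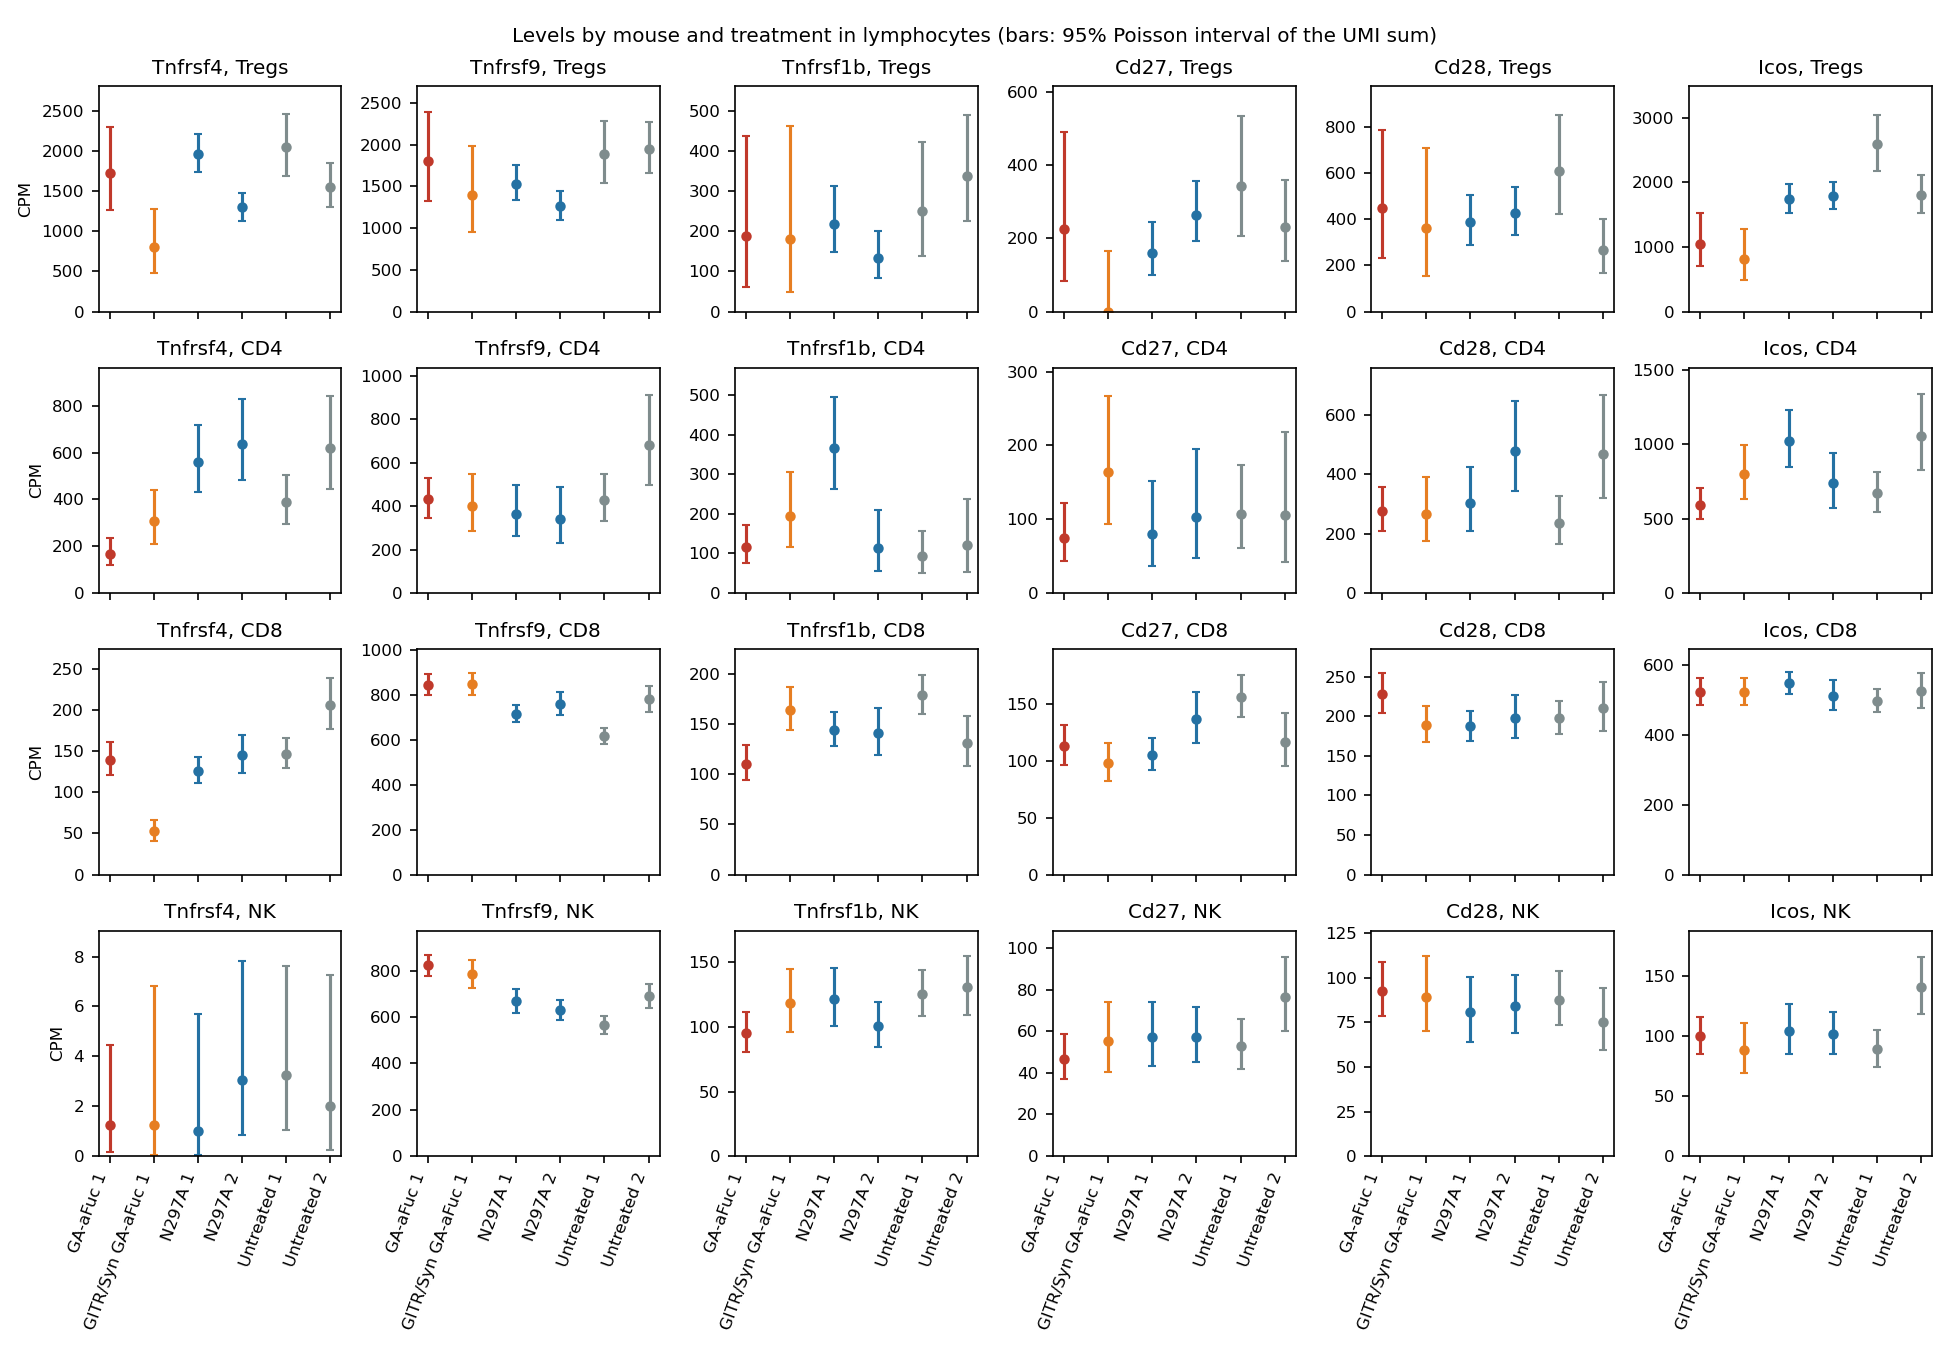
Level of each receptor (CPM, axis from 0) in Tregs, CD4, CD8 and NK cells of each mouse, with the Poisson 95% interval of its UMI sum, in the order GA-aFuc, GITR/Syn GA-aFuc, N297A and Untreated. Tnfrsf4 in CD8 cells is lowest in the GITR/Syn GA-aFuc mouse, at 52.38 CPM, and Icos in CD8 cells lies between 497.7 and 549.3 CPM in all 6 mice.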

How the data were processed

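CD45+ cells of 6 mice were measured in 1 10x Genomics 3' library with hashtags. Per the file headers and the submitters' processing notes, the authors made UMI counts with Cell Ranger 9.0.0 on GRCm39 and GRCh38, and the deposited counts are raw. The deposited cell table gives treatment, cell type and cluster; how the authors filtered and named cells and treated doublets is not given in sources at hand, and no doublet caller was run. Cells were the 8767 table entries with at least 1000 mouse UMIs, less 33 with a top hashtag of a different treatment and 18 repeated barcodes; 10443 entries were not used. Each hashtag was taken as 1 mouse, numbered in hashtag order.

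Sums of UMIs were made for each cell type of each mouse that had 10 cells or more. edgeR 4.0.16 (R 4.3.3, limma 3.58.1) gave robust quasi-likelihood tests with TMM scaling and filterByExpr, Benjamini-Hochberg adjusted over all genes tested, at a threshold of 0.05. Cell types were compared with the mouse as a block, since both types came from the same animals, and treatments in 1 model of 4 groups. The fit was tested on simulated counts. DESeq2 1.42.0 and limma-voom were alternatives. Genes named are the 6 receptors, GITR, called members of 5 lists, and the 3 most like genes of each receptor. A few list and marker genes are not reported here. Receptors and lists were chosen with earlier results of these data known. CPM totals were 16479710 to 19339165 UMIs per mouse, and median depth 11259 to 12940 UMIs per cell. Promoters are RefSeq's on GRCm38.p6; no coordinates of the files' build were used.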

Additional observations from a re-analysis of the deposited data

Results flagged for a closer look

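In 30 sets of 6 mice (6 receptors in 5 cell types), the highest and lowest mouse were compared with the rest by Dixon's ratio, and 6 sets had a mouse that stood apart; chance alone flags about 1 in 20 such sets. Cd27 in CD4 cells was 164.0 CPM in the GITR/Syn GA-aFuc mouse, with the next mouse at 107.2. Tnfrsf1b in CD4 cells was 365.1 CPM in the first N297A mouse, with the next at 194.8. Tnfrsf9 in CD4 cells was 680.0 CPM in the second Untreated mouse, with the next at 430.7. These CD4 sums rest on 12 to 24 cells per mouse. The second Untreated mouse also stood highest in NK cells for Cd27, at 76.41 CPM (next 57.35), and for Icos, at 140.8 CPM (next 104.1). Icos in monocytes was 6.656 CPM in the GITR/Syn GA-aFuc mouse, with the next at 3.22. Both are under the Icos level of free RNA (38.1 CPM), whose part in them was not tested.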

How the results depend on the processing

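Over the alternatives, 387 values of called receptor tests stayed called in the same direction, 30 lost the call and 1 reversed. The reversal was Cd27 in CD4 against NK cells, at -0.0562 (adjusted p = 0.941) without CD4-labelled cells that had a Cd8 UMI and no Cd4 UMI, which held most Cd27 UMIs of the CD4 cells; this alternative was chosen after seeing the data. Without a filter on low counts, GA-aFuc against Untreated and GA-aFuc against N297A each had 1 call (0 with the filter), and CD4 against CD8 had 2 (4 with it). GITR/Syn GA-aFuc against Untreated had 0 calls without the top 5% of cells by UMIs and without each gene's top cell; leaving out single mice gave 0 to 1, with 0 without the second Untreated mouse. Leaving out single mice gave 2 to 4 calls in Tregs against CD4 (2 without the second N297A mouse) and 2 to 4 in CD4 against CD8 (2 without the second Untreated mouse). Macrophages against monocytes had 1 call with no replicate block (3 with it), 2 with DESeq2, and 4 without the top 5% of cells. The cause of these changes was not tested. No paired analysis was possible between treatments because replicate numbers are only hashtag order and 2 groups hold 1 mouse. Of 128 results not called, 4 values under alternatives passed. Thinning to 1000 or 4000 UMIs moved 42 shares of lymphocytes with a receptor UMI and left 6 the same. CPM without mitochondrial and ribosomal protein genes were higher (Tnfrsf9 in CD8 cells 992.6). Tregs at 3 cells in each Fc-enhanced mouse, CD4 cells at 12 to 24 and mregDC at 6 to 13 limit every value of these types. The requirement of at least 20 cells in each mouse gave no value for CD4 or mregDC pairs.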
